A study of Mus musculus with 10 samples.

Results

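The Hox genes encode homeodomain transcription factors that lie in 4 chromosomal clusters and are numbered by paralog group from 1 to 13. They were taken here as every gene whose symbol is Hox, a cluster letter from a to d and a number, which gave 39 of the 32285 genes counted. The study compared whole mandibles of E11.5 mouse embryos with lower incisor buds of E14.5 and E16.5 embryos, all from wild type NMRI mice, by single-cell RNA sequencing of collagenase-dissociated cells (10x Genomics 3' kit v3). The labels name 4, 4 and 2 samples for the 3 stages, but the cells of a stage were deposited in 1 matrix that does not say which sample a cell came from. Each stage was therefore 1 sample without replicates, no test between stages was possible, and age, dissection and library cannot be told apart. Intervals are exact 95% intervals (Poisson for counts, Clopper-Pearson for shares) and cover counting error only.

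Along the body axis, Hox genes with low numbers are active up to the hindbrain and those with high numbers towards the tail. The lower jaw and the mesenchyme of its teeth form from the first pharyngeal arch. The neural crest cells that fill this arch are without Hox expression, whereas the crest of the second arch carries *Hoxa2*. Later in development single Hox genes are also used outside this axial pattern, in skin appendages, blood and vessels.

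The homeoboxes of *Hoxa2* and *Hoxb2*, of the second arch, and of *Hoxd8* and *Hoxc13*, which had the most UMIs, show how far the coding sequences of members described below differ. The homeobox is the stretch of 180 bases that encodes the DNA-binding homeodomain. It was read 5′ to 3′ from GENCODE vM21 transcripts (GRCm38), and capitals mark the codons of the recognition helix, which contacts DNA. *Hoxa2* and *Hoxb2*, which share a paralog group, matched at 134 of 180 positions. *Hoxc13* matched *Hoxa2* at 86 positions and *Hoxd8* at 93. No pair shared an identical run longer than 14 bases within the homeobox.
Hoxa2: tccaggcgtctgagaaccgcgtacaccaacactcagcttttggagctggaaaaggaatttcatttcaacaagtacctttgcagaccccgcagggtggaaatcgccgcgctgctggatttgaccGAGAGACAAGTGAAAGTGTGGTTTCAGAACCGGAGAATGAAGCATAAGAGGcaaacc
Hoxb2: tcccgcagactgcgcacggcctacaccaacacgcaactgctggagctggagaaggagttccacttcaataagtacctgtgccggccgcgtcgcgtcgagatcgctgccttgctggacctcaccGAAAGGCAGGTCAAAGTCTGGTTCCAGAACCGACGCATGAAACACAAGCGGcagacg
Hoxd8: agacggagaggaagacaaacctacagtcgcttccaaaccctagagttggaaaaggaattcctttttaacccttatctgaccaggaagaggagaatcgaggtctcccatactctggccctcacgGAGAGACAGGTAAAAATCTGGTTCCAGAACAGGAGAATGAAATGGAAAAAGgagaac
Hoxc13: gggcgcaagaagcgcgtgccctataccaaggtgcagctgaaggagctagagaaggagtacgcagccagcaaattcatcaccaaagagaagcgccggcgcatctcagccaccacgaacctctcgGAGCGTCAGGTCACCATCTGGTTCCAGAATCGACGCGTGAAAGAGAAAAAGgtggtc

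A cell was used if it had 700 or more detected genes and no more than 20% mitochondrial counts. This left 6573, 6091 and 4511 cells for E11.5, E14.5 and E16.5, with median depths of 5664, 3471 and 6260 UMIs (unique molecular identifiers, each standing for 1 captured RNA molecule). Between 9 and 11 barcode sequences were shared by any pair of stages. The E11.5 matrix stood apart in that it held 0 UMIs of *Ddx3y*, *Eif2s3y*, *Kdm5d* and *Uty*, genes of the Y chromosome, against 1268 and 1977 in the later stages. The cells of each stage were clustered without the Hox genes, and clusters were named mesenchyme-like, epithelium-like and so on from lists of cell type markers. These names are used below without the ending. No E11.5 cluster was named epithelium, and E11.5 cluster 6 stayed unnamed because genes of vessels (*Cdh5*, *Kdr*, *Flt1*) and of immune cells (*Tyrobp*, *Fcer1g*, *C1qb*) led it together.

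Hox transcripts were rare at every stage. The 39 members together had 34, 11 and 115 UMIs in the order of the stages, or 0.716 CPM (counts per 1000000 UMIs, interval 0.496 to 1.0), 0.396 CPM (0.198 to 0.709) and 2.87 CPM (2.37 to 3.45). They lay in 30, 11 and 92 cells. A second Hox UMI was found in 4, 0 and 19 cells, and UMIs of more than 1 member in 1, 0 and 4 cells. The barcodes that failed the filter held 1, 3 and 2 Hox UMIs.

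Of the 39 members, 18 had a UMI at any stage and 21 had none. Members at 0 numbered 25, 33 and 31 in the order of the stages. Members with fewer than 3 UMIs made up 89.7%, 97.4% and 89.7% of the list, while 45.7%, 46.6% and 44.2% of all genes were that low. A count of 0 allows a level of up to 0.0631, 0.108 and 0.0750 CPM (3 counts over all kept cells). *Hoxb4*, *Hoxc13* and *Hoxd8* were detected at all 3 stages. *Hoxa5*, *Hoxa6*, *Hoxc4*, *Hoxc5*, *Hoxc6* and *Hoxc8*, which pattern the neck and thorax, were among those at 0 throughout. So were *Hoxd10*, *Hoxd12* and *Hoxd13*, which act in the limb. Paralogs or cluster neighbours of these genes were detected, so not every such gene was at 0. Among them were *Hoxa7* (3 UMIs), *Hoxa10* (2) and *Hoxa13* (1) at E11.5, and *Hoxc9* and *Hoxd11* (1 each) at E14.5. With at most 3 UMIs each, expression of the genes named in the last sentence cannot be read from these counts.

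The members in use differed between the stages. At E11.5 the 34 UMIs were spread over 14 genes, none with more than 8, and 17 of them belonged to paralog groups 1 to 3, 12 to groups 4 to 8 and 5 to groups 9 to 13. At E14.5 none of the 11 UMIs belonged to groups 1 to 3, 7 belonged to groups 4 to 8 and 4 to groups 9 to 13. At E16.5 groups 9 to 13 held 82 of 115 UMIs, of which *Hoxc13* alone gave 81, or 70.4% of all Hox UMIs of that stage. Without *Hoxc13*, E16.5 held 34 Hox UMIs, the number found at E11.5.

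**Figure D1:**
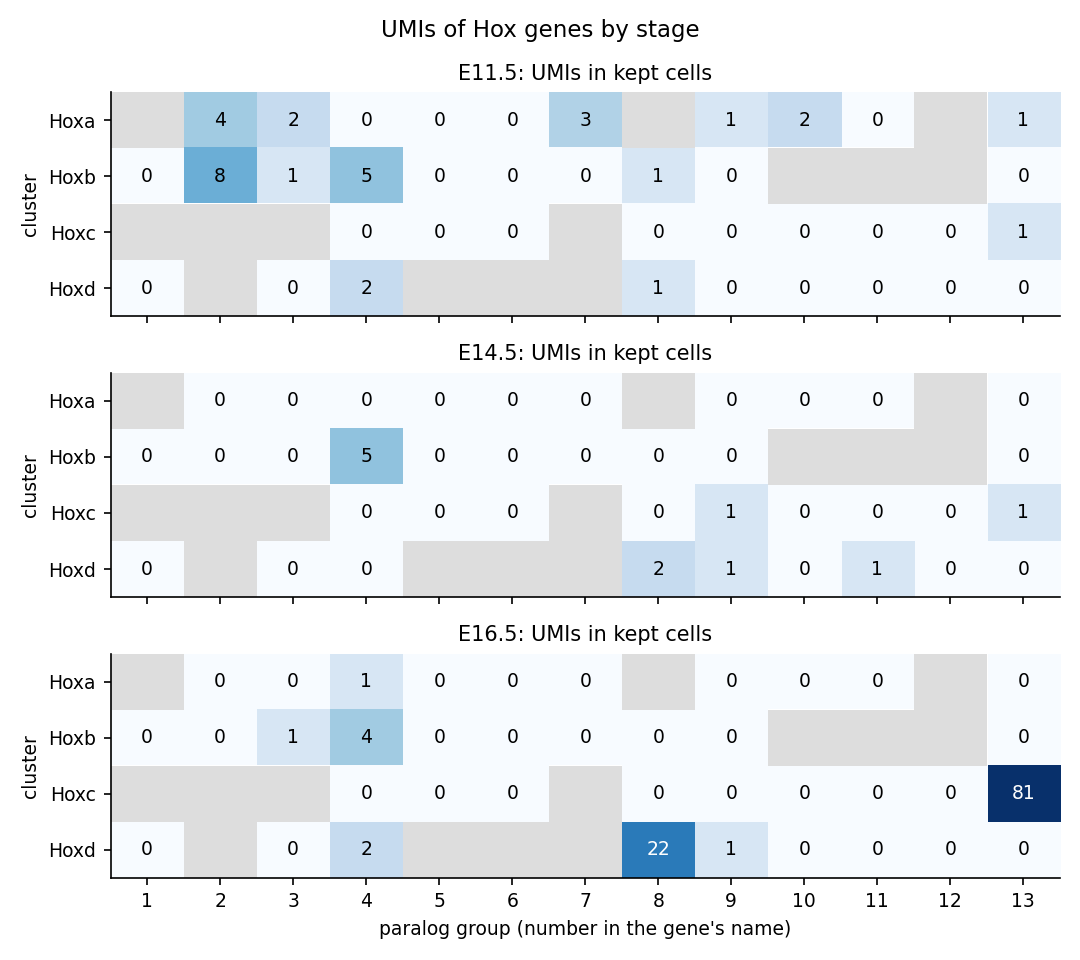
UMIs of Hox genes in the kept cells of each stage, with the chromosomal cluster as row, the paralog group as column, darker blue for more UMIs (log scale) and grey where the genome has no such gene or its value is not reported here. The E11.5 counts lie mostly at the left of clusters a and b, whereas *Hoxc13* (81 UMIs) and *Hoxd8* (22 UMIs) stand out at E16.5.

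Mesenchyme, the bulk of the jaw tissue, was almost free of Hox transcripts at all 3 stages. It held 14 Hox UMIs in 6015 cells at E11.5, 2 in the 4618 cells of E14.5 and 2 in the 2533 cells of E16.5. The summed level of all 39 members in these cells was 0.321 CPM (0.175 to 0.539), 0.112 CPM (0.0136 to 0.405) and 0.107 CPM (0.0129 to 0.386). The level at E11.5 was 2.86 times that at E14.5 (interval 0.658 to 26.0, log2 ratio 1.52) and 3.0 times that at E16.5 (0.690 to 27.2, log2 ratio 1.59). Both intervals include 1, so a difference in mesenchyme between the stages was not detectable at this depth. The share of mesenchyme cells with a Hox UMI was 0.216% (0.115 to 0.369), 0.0433% (0.00525 to 0.156) and 0.0790% (0.00956 to 0.285), at median depths of 5696, 3250 and 5922 UMIs. In cells thinned to 2000 UMIs the shares were 0.129%, 0 and 0.0402%, with 598, 683 and 43 shallower mesenchyme cells left out. Erythroid cells are not a known site of Hox expression once they are full of globin. They held 0 Hox UMIs in 138 cells at E11.5 and 0 in 144 at E14.5, at median depths of 5551 and 5880 UMIs. By the intervals, this allows a share of up to 2.64% and 2.53%. These limits are set by the small number of erythroid cells and lie above the mesenchyme shares. The erythroid counts of 0 therefore cannot tell whether the 2 lineages differ. The part of free RNA in the mesenchyme shares was not tested.

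**Figure D2:**
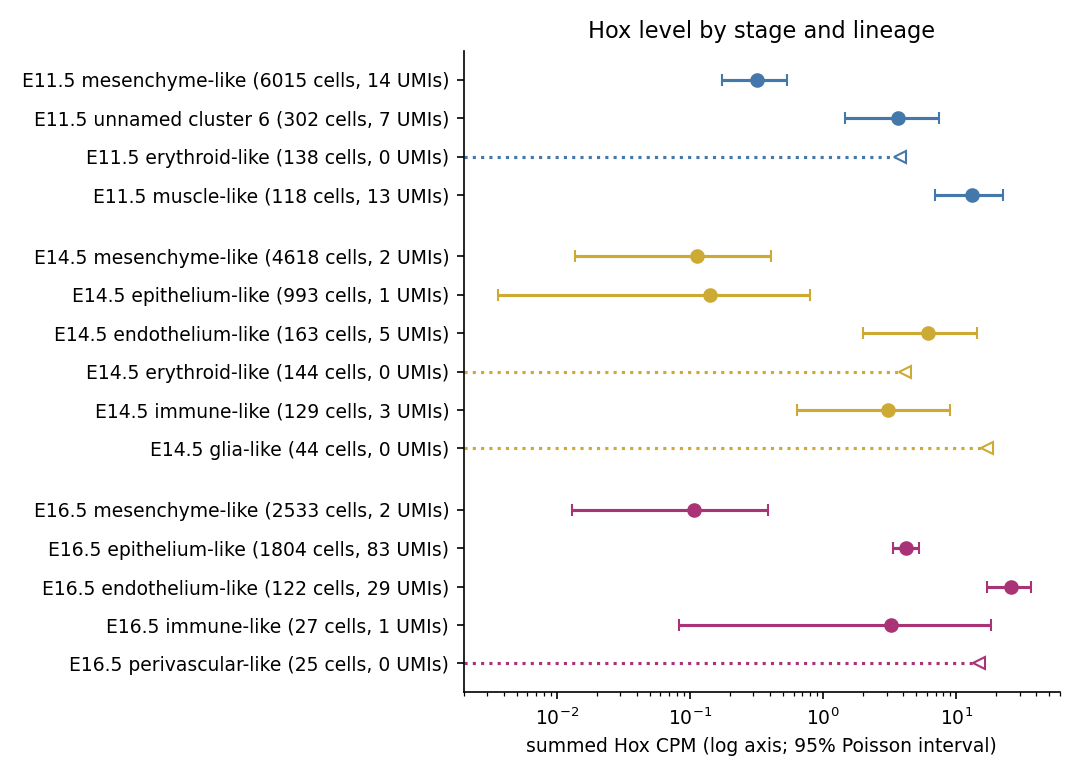
Summed level of the 39 Hox genes in each stage and lineage in CPM (log axis). Points are counts over all cells of the lineage with 95% Poisson intervals, and an open triangle ending a dotted line is the upper bound where no Hox UMI was found. Mesenchyme sits near or below 0.321 CPM at each stage, and E16.5 endothelium is highest at 25.6 CPM.

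The 14 mesenchyme UMIs at E11.5 came from 8 members and 13 cells. *Hoxa7*, a trunk gene, and *Hoxb2*, a gene of the hindbrain and second arch, had 3 each. *Hoxa2*, the selector gene of the second arch, and *Hoxb4* had 2 each, and *Hoxa10*, *Hoxa13*, *Hoxb3* and *Hoxd8* had 1 each. One cell carried both *Hoxa2* and *Hoxb2*, at a depth of 39820 UMIs. Judged by its own markers alone, this cell could not be assigned to a lineage. The same held for the other cell with *Hoxa2* (1875 UMIs), a cell with *Hoxb2* (2088 UMIs) and a cell with *Hoxb4* (2041 UMIs). The remaining cells with a Hox UMI were assigned as mesenchyme in this way too. The 5 mesenchyme clusters held 2 to 4 Hox UMIs each. At E14.5 the 2 UMIs were of *Hoxc9* and *Hoxc13*, and at E16.5 both were of *Hoxc13*. Mesenchyme made up 91.5% of the E11.5 cells and held 41.2% of the E11.5 Hox UMIs. In cells thinned to 2000 UMIs it held 63.6% of them, on 7 UMIs, at 0.646 CPM (0.260 to 1.33).

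The remaining E11.5 Hox UMIs lay in 2 small clusters. The cluster named muscle, led by *Tnnt1*, *Ttn* and *Actc1* of the contractile apparatus, had 118 cells and 13 Hox UMIs in 10 of them. Its level was 13.1 CPM (6.98 to 22.4), and 8.47% of its cells had a Hox UMI (4.14 to 15.0). Without the 5% of E11.5 cells with the highest doublet scores, 7 Hox UMIs in 105 cells were left (8.74 CPM, 3.51 to 18.0). *Hoxb2* had 4 UMIs there, *Hoxa2*, *Hoxa3* and *Hoxd4* had 2 each and *Hoxc13* had 1. *Hoxa3* acts in the third arch and *Hoxd4* in the caudal hindbrain and neck. At E11.5 every UMI of *Hoxa3*, *Hoxd4* and *Hoxc13* lay in this cluster, but these were only 2, 2 and 1 UMIs. Both *Hoxd4* UMIs came from 1 cell. With so few UMIs, nothing is read from their place. In cells thinned to 2000 UMIs, 2.63% of its cells had a Hox UMI (0.546 to 7.50), with 4 shallower cells left out. At E14.5 and E16.5 no cluster was named muscle.

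**Figure D3:**
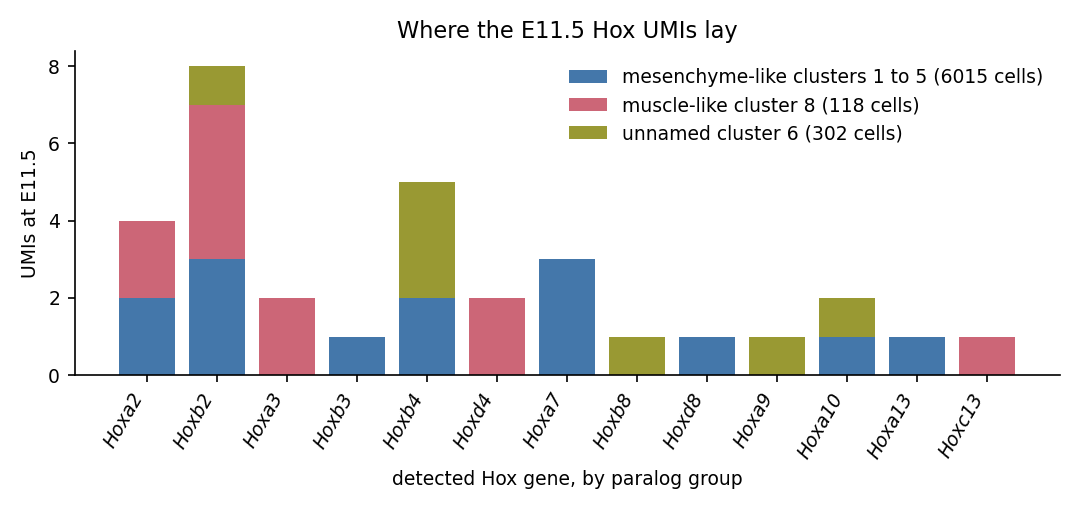
UMIs of Hox genes detected at E11.5 (13 of the 14 are drawn), ordered by paralog group and stacked by where the cells lay (colour). The 118 cells of muscle-like cluster 8 hold 13 UMIs, nearly as many as the 14 of 6015 mesenchyme-like cells. They also hold the only UMIs of *Hoxa3* (2), *Hoxd4* (2, from 1 cell) and *Hoxc13* (1), too few to read a trait from.

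The muscle cluster was mixed when each cell was assigned on its own, to the class with the largest share of its markers detected (at least 3). It held 59 cells assigned as muscle, 25 as mesenchyme, 5 as epithelium, 1 as neuron and 28 that could not be assigned. The Hox UMIs were spread over these, with 3 in muscle cells (*Hoxa3*, *Hoxb2*), 6 in mesenchyme cells (*Hoxa2*, *Hoxb2*, *Hoxd4*), 2 in epithelium cells (1 of *Hoxc13*) and 2 in unassigned cells (1 of *Hoxb2*). *Pax3*, which marks neural crest and somite-derived muscle precursors, was detected in 6 of the 10 cells with a Hox UMI (60%, 26.2 to 87.8) and in 12 of the 108 without (11.1%, 5.87 to 18.6), at 80.2 and 22.4 CPM. *Meis1*, a Hox cofactor, was detected in 5 of the 10 cells (50%, 18.7 to 81.3) and in 15 of the 108 (13.9%, 7.99 to 21.9), at 100.3 and 29.2 CPM. The cells with a Hox UMI were also deeper, with a median of 9654.5 UMIs against 6250.5, and the part of depth in these shares was not tested. *Myf5* and *Myod1*, which commit cells to muscle, had 2 and 1 UMIs in the 10 cells and 52 and 47 in the 108. *Des*, which encodes a filament protein of muscle, was in 7 of the 10 cells and 47 of the 108, at 130.3 and 79.7 CPM. *Meox1*, a somite gene, had 0 UMIs in the 10 cells and 10 in the 108. *Myog*, also of the muscle marker list, had 0 UMIs in the 10 cells and 30 in the 108. By CPM, *Myf5*, *Myod1* and *Myog* were lower in the 10 cells (20.1, 10.0 and 0 against 58.3, 52.7 and 33.7) and *Des* was higher. With so few UMIs in the 10 cells, no difference is read from the muscle and somite genes. *Lbx1*, which migrating muscle precursors of the trunk and tongue express, had 1 UMI in the 10 cells and 5 in the 108, against 0 CPM in mesenchyme. *Tbx5*, a forelimb gene, had 0 in both. These genes were chosen after the data had been seen.

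The unnamed E11.5 cluster of vessel and immune genes had 7 Hox UMIs in 7 of 302 cells, or 3.63 CPM (1.46 to 7.49). Assigned on their own, 4 of these cells were immune (*Hoxa9*, *Hoxa10* and 2 with *Hoxb4*), 2 were endothelial (*Hoxb4*, *Hoxb8*) and 1 was glial (*Hoxb2*). *Hoxa9*, *Hoxa10* and *Hoxb4* are known from blood progenitors. Over all E11.5 cells, 4 of 56 cells assigned as immune had a Hox UMI (7.14%, 1.98 to 17.3). So did 2 of 77 endothelial cells (2.60%, 0.316 to 9.07) and 12 of 5732 mesenchyme cells (0.209%, 0.108 to 0.365). The 7 cells of the unnamed cluster were deep, at 6679 to 29890 UMIs against a cluster median of 2719.5. After thinning to 2000 UMIs, 1 of 173 cells of this cluster had a Hox UMI (0.578%, 0.0146 to 3.18). Another 129 shallower cells were left out. This interval covers the thinned mesenchyme share of 0.129%. The part of depth in the shares of cells assigned on their own was not tested.

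At E14.5 the Hox transcripts lay mainly in vessels and immune cells. Endothelium had 5 of the 11 UMIs, with 2 of *Hoxb4*, 2 of *Hoxd8* and 1 of *Hoxd9*, in 163 cells (6.15 CPM, 2.0 to 14.4). Immune cells had 3, all of *Hoxb4*, in 129 cells (3.10 CPM, 0.638 to 9.05). Epithelium had 1 UMI, of *Hoxd11*, in 993 cells (0.142 CPM, 0.00360 to 0.793), and glia had 0 in 44 cells. *Hoxb4* was thus at 2.46 CPM in endothelium (0.298 to 8.89) and 3.10 CPM in immune cells, while all other kept E14.5 cells were without it. *Hoxb4* stayed low in endothelium at E16.5, at 3 UMIs and 2.65 CPM (0.547 to 7.75), and 1 further UMI lay in the 27 immune cells of that stage.

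At E16.5 the epithelium of the incisor bud carried *Hoxc13*. *Hoxc13* (ENSMUSG00000001655, chr15:102921103-102928814, plus strand) is known for its role in hair and nails, where it controls keratin genes. It overlaps no other gene in GENCODE vM21. Epithelium held 79 of its 81 UMIs, in 65 of 1804 cells, and the other 2 lay in 2 mesenchyme cells. The level was 4.02 CPM in epithelium (3.19 to 5.02) against 0.0981 CPM in all other kept cells, a fold of 41 (11 to 345). Of 15684 genes with at least 10 counts, 2.78% were at least 10-fold higher in E16.5 epithelium than in the other cells of that stage, including *Hoxc13*. It reached 10 counts only through epithelium, so nothing is read from its place among these genes. The share of epithelium cells with a *Hoxc13* UMI was between 2.79% and 4.57% by its interval, against at most 0.285% in mesenchyme, which had a median depth of 5922 UMIs against 6926. In cells thinned to 2000 UMIs it was 0.853% (0.467 to 1.43) in epithelium and 0.0402% (0.00102 to 0.224) in mesenchyme, with 162 and 43 shallower cells left out.

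At E14.5 epithelium had no *Hoxc13* UMI among 7025408 UMIs in 993 cells, which allows up to 0.525 CPM by its interval (0.427 CPM at 3 counts). Set against 3 counts at E14.5, *Hoxc13* was at least 9.43-fold higher in epithelium at E16.5, and the exact interval of the ratio began at 7.49. At least 2-fold higher values were found for 10.9% of 14425 genes in the same comparison, which *Hoxc13* entered only through its E16.5 counts. The 1 *Hoxc13* UMI of the E14.5 data lay in mesenchyme, and the 1 UMI at E11.5 lay in a cell assigned as epithelium by its own markers. The E11.5 data held 12 cells assigned as epithelium in this way, and 2 of them carried a Hox UMI (1 of *Hoxc13*).

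*Hoxc13* was found in all 3 epithelial clusters of E16.5, at different levels. Cluster 7, led by *Gnrh1*, *Vwde*, *Igfbpl1* and *Shh*, the last a signal of the enamel knot and inner epithelium, had 31 UMIs in 346 cells, or 8.67 CPM (5.89 to 12.3). Cluster 5, led by *Krt17*, *Krt5* and *Wnt4*, had 23 UMIs in 534 cells, or 4.95 CPM (3.14 to 7.43). Cluster 1, led by *Isl1*, *Dsc3* and *Epcam*, had 25 UMIs in 924 cells, or 2.19 CPM (1.42 to 3.24). Cluster 7 exceeded cluster 1 by 3.95-fold (2.26 to 6.98) and cluster 5 exceeded cluster 1 by 2.26-fold (1.22 to 4.15), in both cases by more than counting error. Clusters 7 and 5 differed by 1.75-fold (0.989 to 3.15), which counting error covers. The clusters also differed in depth, with median UMI counts of 6597, 4819.5 and 8737.5, so that the cluster with the lowest level was the deepest. The leading genes were ranked against cells of other lineages only, and *Shh* was among the top 10 of cluster 1 too. It was at 421, 62.8 and 139 CPM in clusters 7, 5 and 1. In cells with *Hoxc13*, *Shh* was at 438, 19.8 and 26.3 CPM there, against 419, 68.1 and 146 CPM in cells without.

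**Figure D4:**
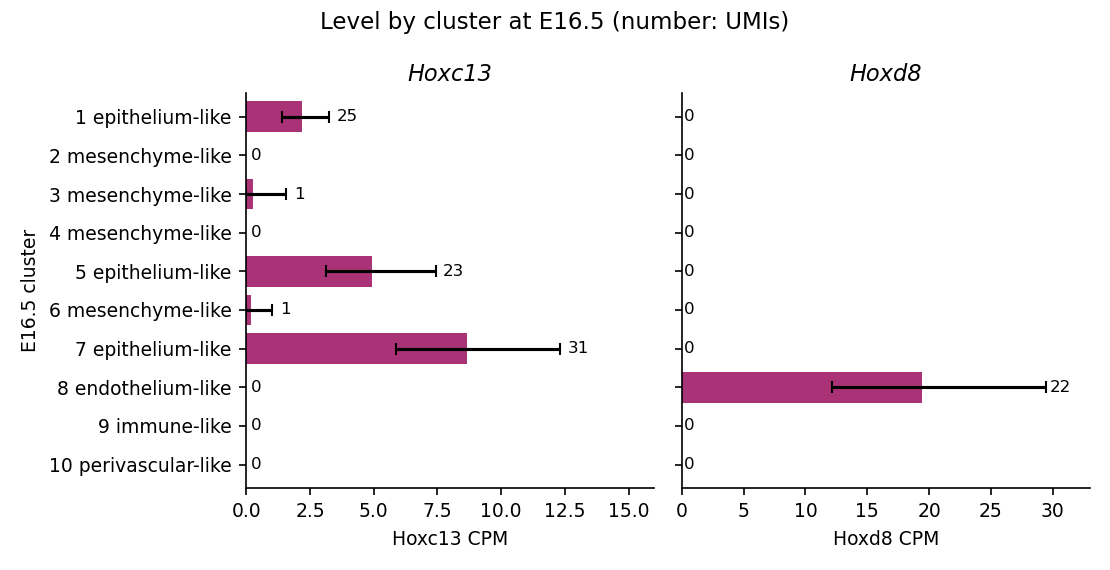
Level of *Hoxc13* (left) and *Hoxd8* (right) in each of the 10 clusters of E16.5, in CPM. Bars are counts over all cells of the cluster with 95% Poisson intervals, and the numbers beside them are UMIs. *Hoxc13* is highest in epithelium-like cluster 7 at 8.67 CPM, and all 22 *Hoxd8* UMIs lie in endothelium-like cluster 8.

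The *Hoxc13* signal was thin in single cells. Of the 67 cells with it, 65 were epithelium and 2 mesenchyme, and 57 had 1 UMI, 6 had 2 and 4 had 3. These cells were deep, with a median of 14674 UMIs against 6724 in epithelium cells without it. Epithelium cells above the median depth of 6926 UMIs had *Hoxc13* at 3.64 CPM (2.77 to 4.70) and those at or below it at 5.81 CPM (3.55 to 8.98), intervals that overlap. Of the 67 cells, 4 (5.97%) were among the 5% of E16.5 cells with the highest doublet scores, as were 5.21% of all epithelium cells.

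No other member of the Hoxc cluster had a UMI at E16.5. Epithelium held 4 further Hox UMIs, 1 of them of *Hoxa4*.

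The 67 epithelium cells with a UMI of any Hox gene at E16.5, of which 65 had *Hoxc13*, were compared with the 1737 without. Ranked by the ratio of CPM with 10 CPM added to both sides, the highest of 9834 genes was *Tagln*, an actin-binding protein, at 61.9 CPM against 13.4 CPM (log2 ratio 1.62). *Hopx*, a homeodomain-only protein of differentiating epithelium, followed at 76.2 against 21.8 CPM (1.44), and *Krtdap*, a gene of differentiating keratinocytes, at 52.6 against 14.8 CPM (1.34). *Slc40a1*, *Hist1h2an*, *Csrp1* and *Acta2* were also among the 8 highest, with log2 ratios from 1.15 to 0.97. The cells with a Hox UMI were deeper, with a median of 14813 UMIs against 6716. In cells thinned to 2000 UMIs, with 66 such cells left, the log2 ratio of *Acta2* fell to 0.21. Those of *Tagln*, *Hopx* and *Krtdap* were then 1.21, 1.15 and 1.83. Those of *Slc40a1*, *Hist1h2an* and *Csrp1* were 0.92, 1.06 and 1.15. The 67 cells were spread differently over the clusters than the rest, with 21 of the 924 cells of cluster 1, 23 of the 534 of cluster 5 and 23 of the 346 of cluster 7. Within clusters 1, 5 and 7, *Tagln* was at 24.9, 158 and 5.58 CPM in cells with *Hoxc13* and at 5.15, 42 and 3.73 CPM in those without, so its difference lay mostly in cluster 5. *Hopx* was at 102, 53.4 and 44.7 CPM against 16.6, 39.6 and 18.0 CPM, and *Krtdap* at 60.8, 65.3 and 8.37 CPM against 9.83, 37.2 and 4.04 CPM. These genes were chosen for their ratio in these cells, and the values are a description. The 4 lowest were the globin genes *Hba-a2*, *Hbb-bs*, *Hbb-bt* and *Hba-a1*, with log2 ratios from -5.68 to -6.11. Of all globin UMIs of the epithelium, 91.9% lay in 42 cells in which they exceeded 20% of the counts, 40 of them in cluster 1. None of these 42 cells had a Hox UMI. Without them, globin was still at 1021 CPM in cells without a Hox UMI, against 167 CPM in those with one. At Leiden resolution 0.8, 38 E16.5 cells formed a cluster named erythroid and epithelium had 1768 cells. The epithelium described here may thus hold some erythroid cells, which was not tested.

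E16.5 endothelium had the highest Hox level of any lineage, through *Hoxd8*. It held 29 Hox UMIs in 22 of 122 cells, or 25.6 CPM (17.2 to 36.8), and 18.0% of its cells had a Hox UMI (11.7 to 26.0). *Hoxd8* (ENSMUSG00000027102, chr2:74704615-74707933, plus strand) gave 22 of these, in 17 cells, at 19.4 CPM (12.2 to 29.4). The other 4389 kept cells of E16.5 had no *Hoxd8* UMI, so endothelium was at least 252-fold higher when set against 3 counts over all other cells, and the exact interval of the ratio began at 188. In cells thinned to 2000 UMIs, 4.31% of endothelium cells had a Hox UMI (1.41 to 9.77), with 6 shallower cells left out. Among the 15684 genes with at least 10 counts, 3.46% were at least 10-fold higher in endothelium than in the other cells. *Hoxd8* was among them, which was fixed by the filter on counts that it passed only through endothelium. The remaining 7 UMIs were 3 of *Hoxb4*, 2 of *Hoxd4* and 1 each of *Hoxb3* and *Hoxd9*. *Cdh5*, the cadherin of endothelial junctions, was detected in 17 of the 17 cells with *Hoxd8* and in 103 of the 105 without. *Prox1* and *Lyve1*, genes of lymphatic vessels, were in 0 of the 17 cells and in 4 and 1 of the 105, too few to compare. *Gja5* and *Hey1*, genes of arteries, were in 4 and 6 of the 17 cells and in 11 and 16 of the 105. *Nr2f2*, a gene of veins, was in 6 of the 17 cells and in 49 of the 105. *Emcn* and *Plvap* were in 17 and 15 of the 17 cells and in 86 and 85 of the 105. A type of vessel cannot be read from these counts. The cells with *Hoxd8* were deeper, with a median of 9048 UMIs against 5870, and 2 of the 17 (11.8%) were among the cells with the highest doublet scores, as were 8.20% of all endothelium cells. These genes were chosen after the data had been seen.

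*Hoxd8* was higher in endothelium at E16.5 than at E14.5, where 2 UMIs gave 2.46 CPM (0.298 to 8.89). The ratio was 7.90 (1.94 to 69.3). At least 2-fold higher values were found for 7.49% of 9405 genes in this comparison, which *Hoxd8* entered only through its E16.5 counts, so nothing is read from that percentage. Summed over all members, endothelium exceeded the 6.15 CPM of E14.5 by a ratio of 4.16 (1.59 to 13.8). Median depth was 6474 UMIs at E16.5 and 3515 at E14.5.

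*Hoxd3os1*, a non-coding RNA that overlaps *Hoxd8* on the opposite strand, followed the same distribution. It had 21 UMIs in 17 endothelium cells at E16.5 (18.6 CPM, 11.48 to 28.4) and 1 UMI in the other cells of that stage, and at E14.5 its 3 UMIs were all in endothelium. At E16.5, 6 endothelium cells had both, which is 35.3% of the cells with *Hoxd8* and 35.3% of those with *Hoxd3os1*. The sources used here do not state whether the counting used the strand, so reads of *Hoxd8* and *Hoxd3os1* cannot be told apart with certainty. *Hoxd4* overlaps *Hoxd3*, *Hoxa3* overlaps *Hoxa4*, *Hoxa5* and *Hoxa6*, and *Hoxc5* overlaps *Hoxc6*, *Hoxc8*, *Hoxc9* and *Hoxc10*, each pair on the same strand, so that UMIs may have been lost or split among these members.

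The low Hox level of mesenchyme stood beside high levels of the genes that pattern the jaw. The 21 genes of a jaw patterning list, which includes the Dlx genes that set dorsal and ventral identity within the arch, summed to 1584, 1151 and 1706 CPM in mesenchyme of the 3 stages. That was 4934, 10276 and 15964 times the summed Hox level, which rested on 14, 2 and 2 UMIs. With Hox intervals of 0.0136 to 0.405 CPM at E14.5 and 0.0129 to 0.386 CPM at E16.5, these multiples are rough. No trend over the stages can be read from them. Erythroid cells, which should lack them, were at 452 CPM at E11.5 and 547 CPM at E14.5. At E11.5, 18 of the 21 were at 10 CPM or more, among them *Barx1* at 362 CPM, *Msx1* at 212 CPM, *Pitx1* at 196 CPM and *Hand2*, of the distal arch, at 165 CPM. *Dlx5* was at 103, 49.1 and 145 CPM at the 3 stages, whereas *Barx1* was at 4.54 CPM at E14.5 and 0.695 CPM at E16.5.

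The partners and regulators of Hox proteins were far above the Hox genes in mesenchyme. The 9 TALE cofactors (Meis, Pbx and Pknox proteins, which bind DNA with Hox proteins) summed to 810, 267 and 228 CPM in mesenchyme of the 3 stages, and 6, 6 and 5 of them were at 10 CPM or more. In erythroid cells the TALE genes summed to 319 CPM at E11.5 and 183 CPM at E14.5. *Meis2* in mesenchyme went from 355 CPM at E11.5 to 19.4 CPM at E14.5 and 1.28 CPM at E16.5. In E16.5 epithelium the TALE genes summed to 296 CPM and in endothelium to 138 CPM, so the lineage with the highest Hox level had a lower cofactor level than mesenchyme. All 11 Polycomb and trithorax genes, which keep Hox clusters silent or active, had at least 3 UMIs in mesenchyme at each stage, with *Ezh2* at 431, 226 and 148 CPM. These genes summed to 871 and 538 CPM in mesenchyme of E11.5 and E14.5, and to 426 and 319 CPM in erythroid cells. The part of free RNA in the levels of both lists was not tested.

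The 11 retinoid and hindbrain genes, which act upstream of Hox genes, summed to 118, 244 and 334 CPM in mesenchyme of the 3 stages. *Aldh1a3*, which makes retinoic acid, was at 8.90, 19.3 and 118 CPM, and *Rarg*, a retinoic acid receptor, at 40.4, 40.5 and 67.0 CPM. The 12 caudal and trunk mesoderm genes summed to 48.7, 94.6 and 17.7 CPM, of which *Pax3* made 28.6, 87.5 and 16 CPM, and *Lbx1* was at 0 in E11.5 mesenchyme. The non-coding RNAs of the Hox clusters, of which 11 of 13 listed were matched, had 6 UMIs in E11.5 mesenchyme and 1 at each later stage, with summed levels of 0.138, 0.0560 and 0.0534 CPM.

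**Figure D5:**
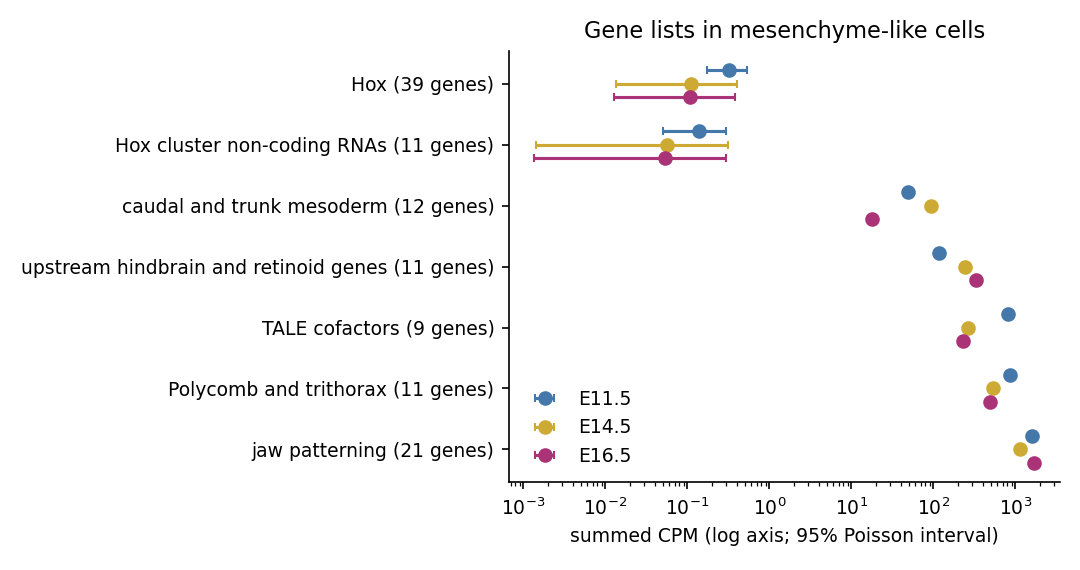
Summed level of each gene list in mesenchyme-like cells in CPM (log axis), by stage (colour), with 95% Poisson intervals. The 39 Hox genes lie between 0.107 and 0.321 CPM, far below the 21 jaw patterning genes at 1151 to 1706 CPM.

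The 13 mesenchyme cells with a Hox UMI at E11.5 were ranked in the same way against the 6002 without. The 8 highest of 8053 genes were *Tagln*, *Tagln2*, *Foxd1*, *Gpm6b*, *Tspo*, *Rapgef2*, *Zeb2* and *Adcy6*, with log2 ratios from 1.96 to 1.42. *Foxd1*, a forkhead factor of the distal arch mesenchyme, was found in 6 of the 13 cells, at 263 CPM against 81.7 CPM, and *Zeb2*, a factor of neural crest, in 5 cells at 149 against 48.8 CPM. The other 6 genes rested on 4 to 12 UMIs in 2 to 8 cells. The 4 lowest were *Anapc15*, *Gsr*, *Hist1h2bb* and *Msantd2*, with log2 ratios from -1.96 to -2.25 and at most 1 UMI in the 13 cells. After thinning to 2000 UMIs, *Tagln*, *Gpm6b* and *Tspo* fell below a ratio of 1, with log2 values of -0.29, -0.16 and -1.18. With so few UMIs left in 12 cells, no change can be read from these values.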

How the data were processed

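Per the labels and the authors' methods, wild type NMRI tissue was sequenced with the 10x Genomics 3' kit v3, and Cell Ranger 4.0.0 was run on mm10 (GRCm38). The authors deposited 1 matrix of UMI counts per stage, not normalized and before their filter on cells. Those counts were used with the authors' filter (at least 700 genes, at most 20% mitochondrial counts). Depth ranged from 864 to 123785 UMIs per cell. No other per-sample columns were present.

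Cells of each stage were clustered after SCTransform (sctransform 0.4.2, Seurat 5.3.0, R 4.3.3; 2000 variable genes without Hox genes, 20 principal components, leidenbase 0.1.32, resolution 0.4). Names came from marker lists. A name needed a marker score of 0.35 or more, at least 3 markers (and 50% of that class's markers) seen in 10% of the cluster's cells, and a top 10 of genes not dominated by markers of some different class. This rule was set after the data were seen. The members and gene lists were chosen with earlier results of these data known. All members were accounted for, those with at least 50 UMIs were given by lineage, and the 8 largest and 4 smallest ratios were named among genes with at least 50 counts and a UMI in 10% of either group.

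CPM were computed from summed counts in python 3.11.15 (numpy 2.4.6, scipy 1.17.1). For folds a count of 0 was set to 3 counts, summed over the group. Scrublet (scanpy 1.11.5) called 0 doublets, so none were removed, and an alternative dropped the 5% of cells that scored highest. Tested on simulated data of E16.5 epithelium, the ranking of 9843 genes placed 100% of 200 genes raised 4-fold among the 200 highest, and for 2-fold changes 97.0% (9976 genes). The intervals held the known ratio for 93.5% and 97.0% of these genes. The simulated counts were Poisson draws from a single mean profile, without clusters or further spread between cells. The recovery therefore holds for counting error only. Genes as low as *Tagln*, *Krtdap* and *Acta2* were not among those raised, and the E11.5 ranking was not simulated. PCR errors and free RNA are not covered by the intervals. Some genes and 1 sequence are not reported here.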

Additional observations from a re-analysis of the deposited data

How the results depend on the processing

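No paired analysis was possible because the cells of a stage could not be assigned to the labelled samples. For the same reason no replicate could be left out. Each choice was changed in turn: the Leiden resolution, the cell filter, the use of Hox genes in clustering, the depth, the doublet scores and the way lineages were assigned. Under each alternative with a value, the summed Hox level stayed at or below 0.646 CPM in E11.5 mesenchyme, 0.123 CPM at E14.5 and 0.201 CPM at E16.5. Thinning each cell to 2000 UMIs moved 5 values beyond their counting interval: mesenchyme at E11.5 to 0.646 CPM (7 UMIs left), mesenchyme at E14.5 and epithelium at E14.5 to 0 CPM, immune cells at E16.5 to 20 CPM (1 UMI left), and the percentage of E11.5 Hox UMIs in mesenchyme to 63.6%. With 0 UMIs left at E14.5, the log2 ratio of E11.5 over E14.5 had no value there. Under the other alternatives the log2 ratios were from 0.25 to 1.76 over E14.5 and from 0.26 to 2.38 over E16.5, the lowest with 1 CPM added to both sides. *Hoxc13* in E16.5 epithelium stayed between 3.94 and 4.37 CPM and *Hoxd8* in E16.5 endothelium between 12.9 and 19.8 CPM, and these alternatives, including one without cells of over 20% globin UMIs, were chosen after seeing the data. The E11.5 muscle cluster was at 8.74 CPM without the highest doublet scores and between 12.1 and 13.2 CPM under the other settings, while the 60 cells assigned as muscle one by one were at 7.06 CPM. Under the strict cell filter (1000 genes or more, 10% mitochondrial counts or fewer) the cluster with the *Hoxd8* cells was left unnamed, no endothelium value was had, and epithelium at E14.5 was at 0 CPM. Lineages with under 5 Hox UMIs allow no statement beyond their intervals.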
